A study of Rattus norvegicus with 3 samples.

Results

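The genes described here were 7 subunits of the GABA-A receptor: the alpha subunits Gabra2, Gabra3, Gabra4, Gabra5 and Gabra6 and the beta subunits Gabrb1 and Gabrb2. They were taken as the probe sets whose only gene symbol in the array's platform annotation was one of these names, which gave 9 of 31099 probe sets and 7 of the 14218 genes that had a probe set with a single symbol. Gabra6 and Gabrb2 had 2 probe sets each and the other 5 genes had 1 each. The genes were singled out with their readings on these same arrays already known, so every value below is a description and none carries a test.

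GABA-A receptors are chloride channels made of several subunits around a pore, most often alpha and beta subunits with a gamma or delta subunit, and GABA binds between an alpha and a beta subunit. The alpha subunit sets much of how a receptor responds to GABA and to benzodiazepines, and where in the neuron the receptor sits. In the hippocampus, alpha5 is known for receptors outside synapses of pyramidal neurons that carry tonic inhibition, alpha2 for synapses on the axon initial segment and cell body, alpha4 for receptors with delta in the dentate gyrus, and alpha3 for receptors that are frequent in the young brain. Alpha6 is known chiefly from granule cells of the cerebellum. The beta subunits beta1 and beta2 complete the receptor and take part in its delivery to the membrane.

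The series measured RNA in 3 cell bodies (somata), each cut with a glass pipette from a single pyramidal neuron. All came from hippocampal cultures of Sprague-Dawley rats at embryonic day 19 that had been kept for 14 days, without treatment. Each soma was read on its own Affymetrix rat array after repeated linear amplification of its RNA, and the 3 arrays formed a single group with no control. The labels call the somata biological replicates without naming an animal or a dish, so the spread given below is between single cells of unknown relation, and a sign permutation over 3 cells could not go below a two-sided p of 0.25.

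Levels are deposited log2 intensities, and a gene takes the median of its probe sets. The percentile of a gene is its place among the 14218 genes on the same array. Since probes differ in affinity, a percentile does not rank transcripts by abundance. A gene read above background where its log2 intensity exceeded the 95th percentile of 130 genes that neurons should not use, such as chemosensory receptors and genes of liver, pancreas or milk. This background lay at 9.69, 10 and 9.43 log2 in cells 1, 2 and 3. By construction 7 of the 130 exceeded it on each array, and of all genes only 7.24%, 5.84% and 10.8% did. It is therefore no detection call, and a reading below it does not show that a transcript was absent. Differences between cells were taken after quantile normalisation and called at 1 log2 (2-fold) or more.

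The arrays had medians of 7.23, 7.16 and 7.09 log2. Of the pyramidal neuron markers, 2, 2 and 4 of 7 read above background in cells 1, 2 and 3. The shares of all genes above background were 7.24%, 5.84% and 10.8%. Neurod2, a transcription factor of excitatory neurons, lay at percentile 99.9 in each cell, and neurogranin (Nrgn) lay at 94.8, 99.4 and 98.8. Neurod6 lay at 54.4, 71.6 and 96.5 and Slc17a6 at 14.1, 29.0 and 94.7. Both passed background in cell 3 alone, so these markers differed between the somata. The remaining markers stayed in the middle or low range. The vesicular glutamate transporter Slc17a7 lay at 55.3, 51.2 and 51.2, Camk2a at 26.5, 19.6 and 26.2, and Tbr1 at 2.12, 14.6 and 23.9. Of the interneuron markers, 1 of 9 read above background in each cell, a count of 1 gene that is not set apart from those shares. Calb2 lay at percentiles 98.3, 91.0 and 99.1, Dlx1 at 89.4, 92.8 and 42.6 and Vip at 62.7, 97.0 and 44.8, while Sst lay at 41.7, 22.2 and 46.3, Slc32a1 at 27.8, 55.9 and 14.0 and Gad2 at 14.1, 0.644 and 7.48. Part of the pyramidal list and single interneuron markers thus read high in the same cells, and nothing about the interneuron list follows from its count.

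Gabra5, encoding the alpha5 subunit, was the member that read above background in all 3 somata. Its probe set 1371057_at read 10.37, 10.78 and 12.74 log2 in cells 1, 2 and 3 (mean 11.30 ± 1.26 SD, n = 3). These values placed it at percentiles 96.2, 97.4 and 99.8 (mean 97.8 ± 1.82). Every cell held it among the top 5% of its genes, with cell 3 standing above the others. After normalisation, the intensity in cell 3 was 4.03-fold that in cell 1 and 3.30-fold that in cell 2, while cells 1 and 2 differed by 0.29 log2. The range over the cells, 2.01 log2, was wider than that of 68.8% of all genes.

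Gabrb1, encoding beta1, was likewise highest in cell 3 but dipped below background in cell 2. Probe set 1369904_at gave 10.84, 9.26 and 11.74 log2 in cells 1, 2 and 3 (10.61 ± 1.26). The percentiles were 97.6, 88.9 and 99.1. It exceeded background by 1.15 log2 in cell 1 and 2.32 in cell 3, and fell short of it by 0.74 in cell 2. Where the dimmer cell lay below background, a fold is given as a lower bound against the background of that cell. On this scale Gabrb1 was at least 3.0-fold higher in cell 3 than in cell 2 and at least 1.95-fold higher in cell 1 than in cell 2. Cell 3 exceeded cell 1 by 1.54-fold, under the 2-fold limit.

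Gabra3, encoding alpha3, was bright in 2 of the somata and dim in the other one. Its probe set 1369844_at read 11.73, 11.55 and 4.90 log2 in cells 1, 2 and 3 (9.39 ± 3.89), at percentiles 99.4, 99.2 and 4.78. Cells 1 and 2 differed by 0.33 log2, less than the call limit. Cell 3 lay 6.87 log2 below cell 1 and 6.54 below cell 2, and 4.52 below background. As bounds, Gabra3 was at least 5.72-fold higher in cell 1 and at least 4.56-fold higher in cell 2 than in cell 3. As the value of cell 3 was below background, the size of the gap beyond these bounds is not known.

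Gabra2, encoding alpha2, read above background in cell 1 alone. Probe set 1397614_at, designed on an expressed sequence tag, gave 11.20, 4.83 and 4.37 log2 in cells 1, 2 and 3 (6.80 ± 3.82). That placed the gene at percentile 98.7 in cell 1, against 3.31 in cell 2 and 1.14 in cell 3. The normalised intensity of cell 1 exceeded those of cells 2 and 3 by 6.52 and 6.90 log2 as read. As bounds, Gabra2 was at least 2.55-fold higher in cell 1 than in cell 2 and at least 3.99-fold higher than in cell 3. Cells 2 and 3 both lay more than 5 log2 under background, and no fold is given between them.

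Gabra4, encoding alpha4, showed a shallower form of that pattern. Probe set 1369905_at read 10.29, 6.93 and 5.72 log2 in cells 1, 2 and 3 (7.65 ± 2.37), at percentiles 95.7, 41.6 and 15.8. Only cell 1 passed background, by 0.60 log2. As read, cell 1 exceeded cell 2 by 3.48 log2 and cell 3 by 4.58. Since cells 2 and 3 lay below background, the bounds were small, at least 1.32-fold over cell 2 and at least 2.07-fold over cell 3.

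**Figure D1:**
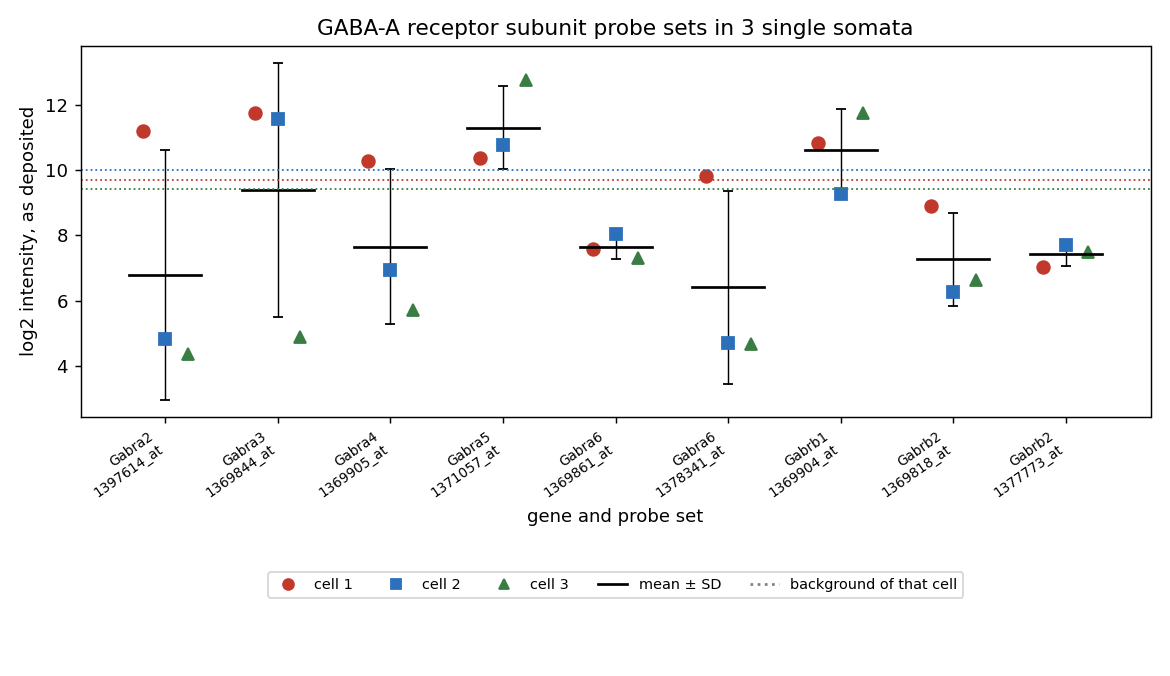
Deposited log2 intensity (vertical axis) of the 9 probe sets of the 7 genes (horizontal axis) in cell 1, cell 2 and cell 3. Horizontal bars are means, whiskers are SD over the 3 cells, and dotted lines mark the background of each cell (9.69, 10 and 9.43 log2): Gabra5 lies above its line in every cell, Gabra2 and Gabra4 in cell 1 alone.

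Gabra6, encoding alpha6, had probe sets that disagreed. Probe set 1378341_at read 9.83, 4.72 and 4.68 log2 in cells 1, 2 and 3 (6.41 ± 2.96) and passed background in cell 1 by a narrow margin. Probe set 1369861_at read 7.60, 8.06 and 7.31 log2 (7.66 ± 0.38) and stayed below background in every cell. The first put cell 1 above cell 2 by 5.2 log2, and the second put it below by 0.52. The gene's median of 8.71, 6.39 and 6.00 log2 was below background in all cells, at percentiles 83.4, 27.7 and 21.3. Whether cell 1 was higher therefore depended on the probe set.

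Markers of cerebellar granule cells, the usual place of alpha6, gave a mixed reading. Of 7 measured, 2, 1 and 1 read above background in cells 1, 2 and 3. The shares of all genes were 7.24%, 5.84% and 10.8%, so these small counts say little. Zic2 lay at percentiles 99.1, 96.3 and 98.3, Pax6 at 93.6, 69.1 and 86.3, and Cbln1 at 66.5, 74.1 and 85.4. En2, which marks the cerebellum, lay at 9.71, 7.27 and 4.44, with Zic1 at 37.3, 43.9 and 44.8 and Etv1 at 55, 72.8 and 66.6. Zic2 and Pax6 are also used outside the cerebellum. What these markers mean for the Gabra6 readings was not tested.

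Gabrb2, encoding beta2, was not read above background. Probe set 1369818_at read 8.89, 6.27 and 6.65 log2 in cells 1, 2 and 3 (7.27 ± 1.42), and probe set 1377773_at read 7.04, 7.72 and 7.5 (7.42 ± 0.35). Neither passed background in any cell. The gene's percentiles were 68.9, 43.4 and 47.0, and the differences between cells of its median over the probe sets stayed under the limit. That median joined probe sets that moved apart, and 1369818_at alone differed by 2.63 and 2.18 log2 between cell 1 and cells 2 and 3. Here too the probe sets put cell 1 on opposite sides of cell 2, at 2.63 and -0.77 log2.

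Set side by side, 5 members read above background in cell 1 (Gabra2, Gabra3, Gabra4, Gabra5 and Gabrb1), where 7.24% of all genes did. In cell 2 there were 2 (Gabra3 and Gabra5), where 5.84% of all genes did, and in cell 3 there were 2 (Gabra5 and Gabrb1), where 10.8% did. The median percentile of the members was 96.2 in cell 1, 43.4 in cell 2 and 21.3 in cell 3, with 50, 50 and 50.1 for all genes. Gabra5 was thus the member above background in all 3 cells. With the chemosensory receptors alone as background, 3 members passed in cell 2, and Gabrb1 joined Gabra5 in passing in every cell.

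Between cells 1 and 2, 4 members were at least 1 log2 higher in cell 1 (Gabra2, Gabra4, Gabra6 and Gabrb1), where 21.8% of all genes were, and 0 were lower, where 24.9% were. Between cells 1 and 3, 4 were higher in cell 1 (Gabra2, Gabra3, Gabra4 and Gabra6), against 21.9% of all genes, and 1 was lower (Gabra5), against 28.5%. Between cells 2 and 3, 2 were higher in cell 2 (Gabra3 and Gabra4), against 17.0% of all genes, and 2 were lower (Gabra5 and Gabrb1), against 19.3%. Cell 1 exceeded both other cells in 3 members (Gabra2, Gabra4 and Gabra6), where 14.5% of all genes did so. By gene, the alpha subunits other than Gabra5 were highest in cell 1 as read, and Gabra5 and Gabrb1 were highest in cell 3. The order for Gabra6 rested on 1 of its probe sets. For Gabra3, cell 1 minus cell 2 was 0.33 log2, and for Gabrb1, cell 1 minus cell 3 was -0.62 log2. Both differences were under the limit, so neither gene was called higher in its top cell than in the next. These counts take values as read, and both sides lay below background for Gabra6 in every pair and for Gabra4 between cells 2 and 3. The members' median range over the cells was 2.66 log2, beside 1.47 for all genes. As the genes were picked on these readings, nothing about the family follows from the counts.

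**Figure D2:**
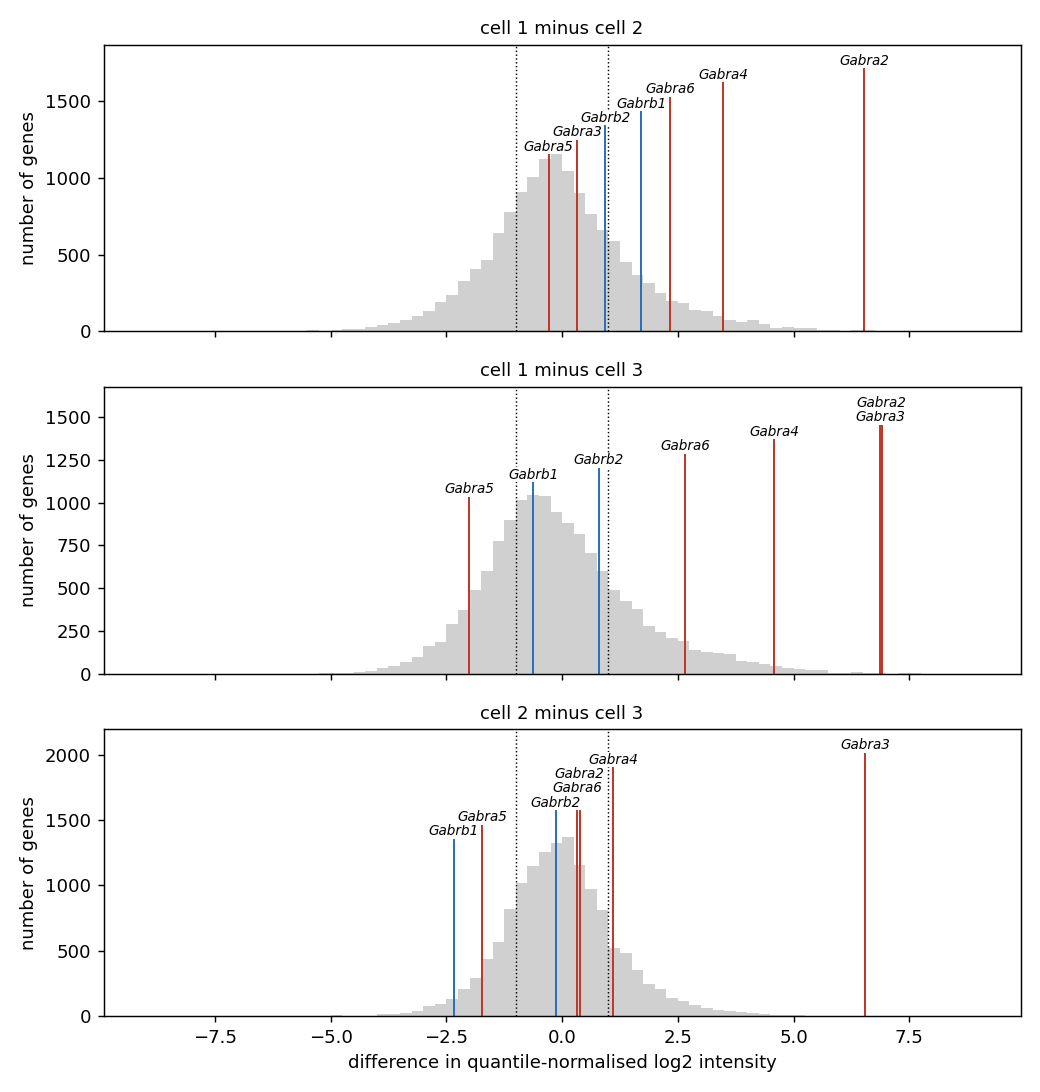
Distribution over all 14218 genes (grey; vertical axis, number of genes) of the difference in quantile-normalised log2 intensity (horizontal axis) for cell 1 minus cell 2, cell 1 minus cell 3 and cell 2 minus cell 3, with alpha subunits as red and beta subunits as blue lines whose heights carry no value. Dotted lines mark 1 log2, and values below background are drawn as read: Gabra2 lies at 6.52 and 6.90 in the comparisons with cell 1, and Gabra3 at 6.87 and 6.54 in the comparisons with cell 3.

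Some other readings also stood high in cell 1, though not whole lists of markers. Microglial markers read above background in 4 of 8 cases in cell 1 (Tyrobp, C1qc, Csf1r and Itgam), where 7.24% of all genes did. In cells 2 and 3 the counts were 0 and 0, and the summed intensities were 9320, 1310 and 1390. Tyrobp lay at percentiles 99.3, 9.95 and 2.93. Aif1 and Cx3cr1, which also define microglia, went the other way, at 1.65, 31.9 and 28.3 and at 17.2, 68.3 and 75.8. Both lay below background in every cell. At a limit of 1 log2, 4 of the 8 were higher in cell 1 than in cell 2 and 3 were lower. The counts against cell 3 were the same. In both comparisons the markers that were higher passed background in cell 1. Those that were lower stayed below background in every cell. Astrocyte markers summed to 4190, 959 and 1020, with 1 of 6 above background in cell 1 (S100b, percentile 98.9) and 0 in the others. S100b was the brightest of them in cell 1, at 11.35 log2. Aqp4 at 80.0, 8.95 and 4.44 and Gja1 at 92.4, 49.7 and 37.4 were also highest in cell 1. Gfap at 14.9, 68.0 and 47.8 and Aldh1l1 at 2.87, 30.9 and 11.1 were lowest in cell 1. All astrocyte markers but S100b lay below background in every cell. At a limit of 1 log2, 3 were higher in cell 1 than in cell 2 and 2 were lower. Against cell 3, 3 were higher in cell 1 and 1 was lower. Oligodendrocyte markers summed to 2500, 2090 and 958, with 0 of 6 above background in each cell. The control probe sets for Gapdh read 0.20, 3.06 and 2.93 log2 higher at the 3′ than the 5′ end, so cell 1 stood apart there as well, and those for hexokinase differed by -2.40, 1.79 and -0.18. The part of glial RNA or of RNA integrity in the high Gabra2, Gabra4 and Gabra6 readings of cell 1 was not tested.

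The members that passed background in some cell were also compared in shape, each centred on its own mean over the cells. By Euclidean distance over the 3 normalised values, Gabra5 and Gabrb1 lay 1.45 apart, Gabra2 and Gabra4 2.25, and Gabra3 and Gabra5 7.01. These distances include readings below background for every gene but Gabra5. With 3 cells, such distances describe shape and carry no test.

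Without centring, the nearest genes in normalised log2 level over the 3 cells were listed for the 6 members that differed by 1 log2 or more between cells, which left out Gabrb2. Such nearness depends on the affinity of the probes and, for all but Gabra5, on readings below background. For Gabra2 they were Tmem26 at a distance of 0.40 and Eif2s3y at 0.52, both bright in cell 1 alone. For Gabra3 they were Nup54 at 0.41 and Btg4 at 0.80, and for Gabra4 they were Ldlrad4 at 0.21 and Rtp3 at 0.28. Gabra5 had Ndfip1 at 0.49 and Prnp at 0.57, which brightened in cell 3 as it did. The nearest genes to Gabra6 were P2rx6 at 0.10 and Bag1 at 0.11, and those to Gabrb1 were Nme7 at 0.33 and Calb2 at 0.35.

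Several subunit genes are neighbours in the rat genome, and their readings are set side by side here. In the RefSeq gene table Gabrb1, Gabra4, Gabra2 and Gabrg1 follow each other with only Cox7b2 lying between Gabra4 and Gabra2. Gabra4 and Gabra2 both peaked in cell 1. Gabrb1 was highest in cell 3, but by less than 1 log2 over cell 1. Gabrg1, a gamma subunit named here after its values were seen, read 4.76, 8.34 and 6.99 log2 in cells 1, 2 and 3 and was below background in each. On the X chromosome Gabra3 stands between Gabre and Gabrq, with 1 other gene on each side. Gabre, encoding epsilon, read 9.57, 7.86 and 6.82 log2 and was below background in each, whereas Gabra3 passed it in cells 1 and 2. Gabra6 and Gabrb2, both below background as genes, are next to each other, and Gabra5 is next to Gabrg3, whose percentiles were 32.6, 33.7 and 52.4 against 96.2, 97.4 and 99.8 for Gabra5.

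The promoters of the members differ in base composition, and those of 3 alpha subunits with contrasting patterns are shown here, from RefSeq (GRCr8), 250 bases before to 50 after the start, 5′ to 3′ on the gene's strand, with CpG dinucleotides in capitals. They are Gabra3 at chrX:155543821-155544120 (minus strand), Gabra4 at chr14:36944497-36944796 (plus strand) and Gabra5 at chr1:117516557-117516856 (minus strand).
Gabra3: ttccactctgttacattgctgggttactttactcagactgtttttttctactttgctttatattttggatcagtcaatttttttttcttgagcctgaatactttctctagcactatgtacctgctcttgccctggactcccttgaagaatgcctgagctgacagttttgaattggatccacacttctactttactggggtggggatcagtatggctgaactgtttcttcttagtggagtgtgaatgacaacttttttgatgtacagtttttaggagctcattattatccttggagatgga
Gabra4: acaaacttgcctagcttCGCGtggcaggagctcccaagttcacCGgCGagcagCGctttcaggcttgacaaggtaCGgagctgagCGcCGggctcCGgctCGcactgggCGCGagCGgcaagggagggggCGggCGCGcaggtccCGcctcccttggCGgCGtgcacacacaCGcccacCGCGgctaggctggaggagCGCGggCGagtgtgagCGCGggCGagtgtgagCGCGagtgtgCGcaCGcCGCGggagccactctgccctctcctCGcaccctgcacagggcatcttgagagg
Gabra5: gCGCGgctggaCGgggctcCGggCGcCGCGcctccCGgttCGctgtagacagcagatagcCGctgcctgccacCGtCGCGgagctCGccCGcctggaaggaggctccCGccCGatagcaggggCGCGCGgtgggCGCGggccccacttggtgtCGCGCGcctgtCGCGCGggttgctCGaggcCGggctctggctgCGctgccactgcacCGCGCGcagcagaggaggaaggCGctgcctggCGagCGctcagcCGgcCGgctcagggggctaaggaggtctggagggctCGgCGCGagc

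Promoters matched for 6 of the 7 members, beside 33469 promoters of the same length. Gabra3 had 0 CpG and a GC content of 39.3%, while Gabra5 had 42 CpG and 76.3% and Gabra4 had 35 CpG and 70.7%. The median promoter had 7 CpG and 51.7% GC, and 5.47% of all promoters had none. Gabra6 also had 0 CpG (42.3% GC), Gabrb1 had 11 (49.3%) and Gabrb2 had 9 (44%). CpG-rich promoters thus went with a gene that read high in every cell (Gabra5) and with a gene that read high in cell 1 alone (Gabra4), and a promoter without CpG with a gene bright in cells 1 and 2 (Gabra3).

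Both beta subunit promoters held the letters GCGCATGCG, the core of the motif of the transcription factor NRF1. Its reverse complement, CGCATGCGC, overlaps it, and both strands were searched. The letters were in 1.52% of all promoters (508 of 33469) and in 0 of the 4 alpha promoters. The stretches around it are shown because both hold the motif, which stands in capitals with the overlapping letters of the other strand, for Gabrb1 at chr14:36902873-36902942 (minus strand) and Gabrb2 at chr10:27439678-27439747 (plus strand).
Gabrb1: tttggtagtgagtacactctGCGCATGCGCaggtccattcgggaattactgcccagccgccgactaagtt
Gabrb2: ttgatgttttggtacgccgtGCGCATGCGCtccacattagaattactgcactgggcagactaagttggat

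The match is one of letters and no binding was measured. Gabrb1 and Gabrb2, which share it, differed in what they read, since Gabrb1 lay at percentiles 97.6, 88.9 and 99.1 and Gabrb2 at 68.9, 43.4 and 47.0.

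Of the other GABA-A subunit genes, 9 were measured here, and 0 read above background in any cell. Of all genes, 7.24%, 5.84% and 10.8% did in cells 1, 2 and 3. Their median percentiles were 32.6, 51.0 and 52.4 in cells 1, 2 and 3, against 96.2, 43.4 and 21.3 for the members. The highest were Gabrd at 63.9, 69.1 and 83.8, Gabre at 91.9, 66.3 and 40.5, and Gabrq at 47.4, 60.3 and 81.0. Delta (Gabrd) is the partner of alpha4 in receptors outside synapses. The lowest were Gabrp at 4.65, 47.2 and 40.5, the retinal rho subunit Gabrr1 at 24.6, 28.1 and 54.9, and Gabrg3 at 32.6, 33.7 and 52.4. As all of them lay below background, no differences between cells are drawn from these values.

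**Figure D3:**
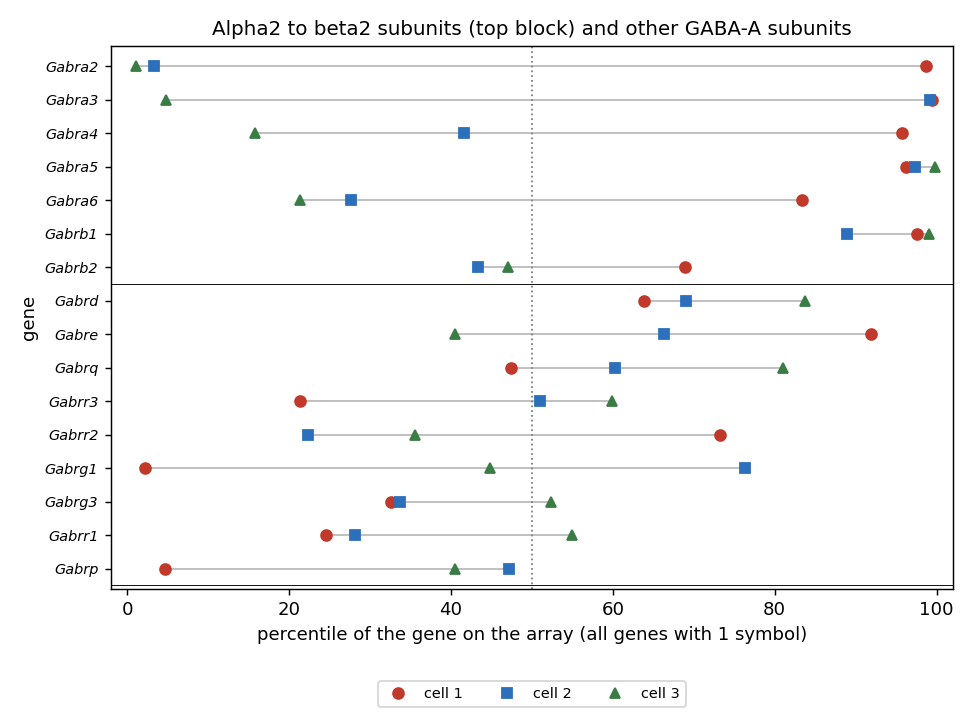
Percentile of each subunit gene on its array (horizontal axis, 0 to 100 over all genes with 1 symbol) in cell 1, cell 2 and cell 3, with the 7 members in the top block and the 9 other subunit genes below, each gene on its own line. Gabra5 lies at 96.2, 97.4 and 99.8, while Gabra2 spans 1.14 to 98.7 and no gene of the lower block exceeds 91.9.

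Genes that anchor, deliver and hold GABA-A receptors lay near the middle of the arrays as a group. Of 29 measured out of 33, 2, 2 and 3 read above background in cells 1, 2 and 3, near the shares of all genes (7.24%, 5.84% and 10.8%), and their median percentiles were 48.8, 48.4 and 52.7. The highest were Ap2m1, a subunit of the endocytic adaptor AP-2, at 98.3, 97.7 and 99.6, the exchange factor Iqsec3 at 90.1, 87.0 and 96.5, and the motor Kif5a at 86.2, 89.5 and 89.0. Gephyrin (Gphn), the scaffold of inhibitory synapses, lay at 17.2, 6.93 and 79.6, and was thus highest in cell 3. Its difference was -2.70 log2 for cell 1 minus cell 3 and -3.36 for cell 2 minus cell 3, with every value below background. The adhesion protein neuroligin-2 (Nlgn2) was steady at 84.8, 78.8 and 79.5. The lowest were Slitrk3 at 2.95, 28.4 and 31.3, Trak1 at 37.7, 18.4 and 23.2, and Arfgef2 at 24.9, 31.7 and 33.4. Of these 29, 4 were at least 1 log2 higher and 11 lower in cell 1 than in cell 3, where 21.9% and 28.5% of all genes were.

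The chloride transporters set the direction of current through GABA-A receptors. Slc12a5 (KCC2), which exports chloride in mature neurons, read 8.38, 10.47 and 11.41 log2, at percentiles 77.7, 96.4 and 98.6, and passed background in cells 2 and 3. Slc12a2 (NKCC1), the importer of young neurons, read 7.79, 8.87 and 7.21 log2, at 64.5, 84.6 and 50.6, below background in every cell. Cell 1 held the lowest Slc12a5 value, below background, and as bounds the gene was at least 1.62-fold higher in cell 2 and at least 2.78-fold higher in cell 3 than in cell 1. The metabotropic GABA-B receptors were mid-range, with Gabbr1 at 74.5, 67.3 and 81.3 and Gabbr2 at 58.2, 80.4 and 58.0.

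**Figure D4:**
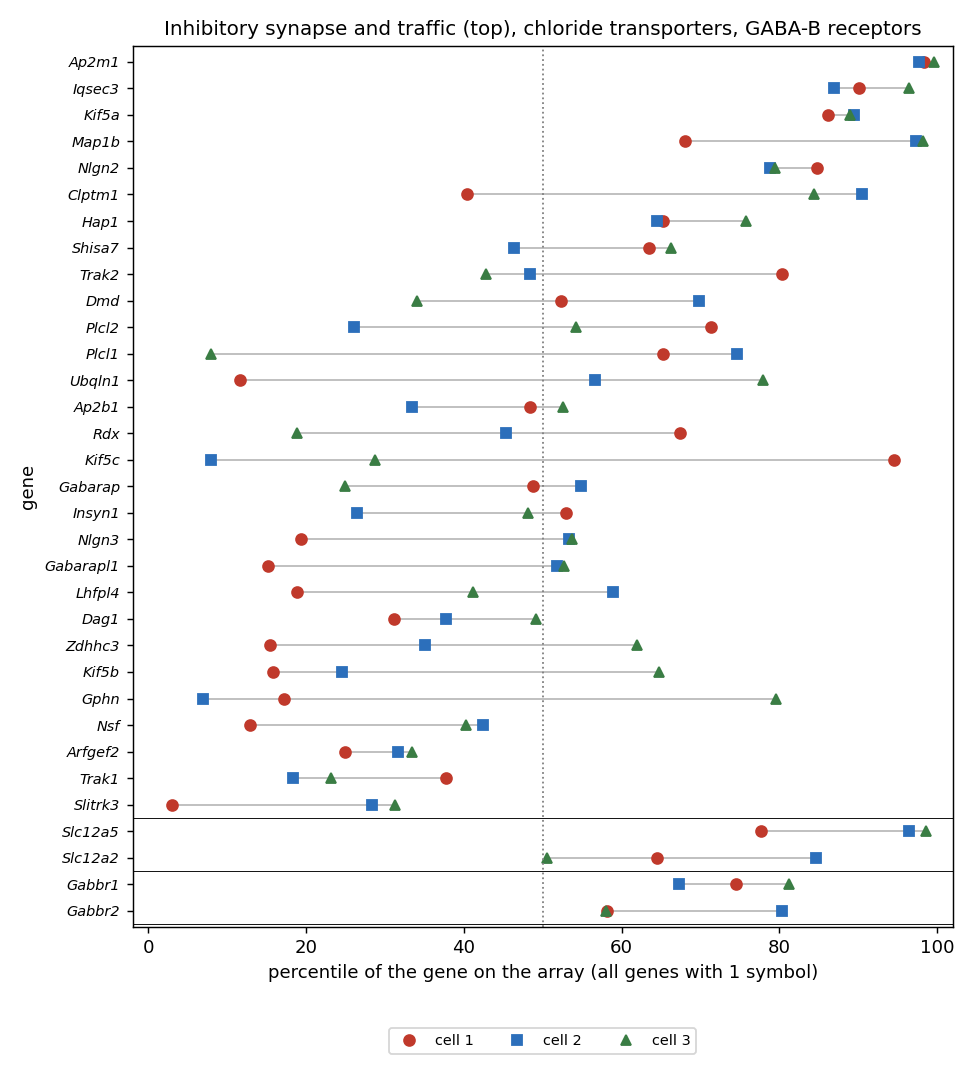
Percentile on the array (horizontal axis) of genes of the inhibitory synapse and receptor traffic (top block), chloride transporters (middle) and GABA-B receptors (bottom) in cell 1, cell 2 and cell 3, each gene on its own line. Ap2m1 lies above 97 in every cell, Gphn spans 6.93 to 79.6, and Slc12a5 lies at 77.7, 96.4 and 98.6.

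Genes for making and clearing GABA, which interneurons and glia use, had 0 of 7 above background in any cell. Of all genes, 7.24%, 5.84% and 10.8% passed in cells 1, 2 and 3. The median percentiles of the 7 were 65.3, 47.0 and 14.6. Gad1 lay at 58.5, 80.3 and 5.26, Gad2 at 14.1, 0.644 and 7.48, and the vesicular transporter Slc32a1 at 27.8, 55.9 and 14.0. The highest were Abat, which degrades GABA, at 68.8, 56.8 and 83.1, Slc6a13 at 65.3, 31.7 and 57.8, and Aldh5a1 at 66.1, 47.0 and 35.4. Slc6a11, a glial GABA transporter, lay at 80.8, 19.4 and 14.6 and was highest in cell 1. Among the related glycine receptors, 1 of 4 passed background, Glra3 in cell 1, where 7.24% of all genes did. Glra3 read 9.76, 8.73 and 5.53 log2 and was lowest in cell 3, as Gabra3 was. The beta subunit of those receptors, Glrb, lay at 22.2, 0.967 and 1.02, with Glra1 at 74.1, 76.8 and 62.9 and Glra2 at 62.9, 81.3 and 51.7.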

How the data were processed

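The authors deposited 1 log2 intensity per probe set for each of 3 soma arrays, and the submitters' processing notes name RMA 2.0. The methods of the study describe an upper-decile summary with median centring and scaling by the 10th to 90th percentile range, which the deposited values do not show. A genome build and detection calls are not given in the sources used here. Precision is limited by there being 3 arrays.

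Of 31099 probe sets, 20832 carried 1 symbol, 436 several and 9831 none in the platform annotation, which can be old. Genes took the median of their probe sets. The RefSeq table (GRCr8) served for names and neighbours (16 of 16 subunit genes matched). Percentiles, and differences after quantile normalisation over all probe sets, were computed with Python 3.11.15, pandas 2.3.3 and numpy 2.4.6, and plotted with matplotlib 3.10.9. Background was the 95th percentile of 130 silent genes (28 chemosensory receptors and 102 genes of other organs), and 7 of them exceed it on each array by construction.

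The code was tested on simulated data. Members and lists were chosen with earlier results of these data known. The text names all members. Per list it names the 3 genes with the highest and the 3 with the lowest mean percentile plus defining genes. The glial lists are an exception and do not follow this rule. The microglial genes C1qa and C1qb, the astrocyte gene Slc1a3 and all oligodendrocyte genes are left unnamed. Of marker lists, only those that bear on a member are named. Alternatives covered scaling, probe set choice, annotation, background and leaving out each cell.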

Additional observations from a re-analysis of the deposited data

How the results depend on the processing

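Counts of members above background or at least 1 log2 apart changed by at most 1 under the alternatives of background, scaling, probe set choice and annotation. With chemosensory receptors alone as background, 3 members in place of 2 passed in cell 2. Of 132 values for single genes, 126 moved by less than the spread between the cells. Many of them could hardly have moved more. Leaving out 1 of 3 cells cannot shift a mean by the SD over those same cells. Leaving out ambiguous probe sets removed none of the members' own, and 5 members had 1 probe set to choose from. The count is therefore no measure of stability. Taking the brightest probe set per gene turned Gabra6, cell 1 minus cell 2, to -0.52 log2 from 2.34, and moved cell 1 minus cell 3 to 0.16 from 2.66. It also gave Gabrb2 -0.77 and -0.59 log2 in place of 0.93 and 0.79, and Gabra5 a mean percentile of 95.7. With only the 8951 genes above the silent median, 6 of 7 members were kept and Gabrb2 had a mean percentile of 32.4. The member dropped was Gabra2, whose mean over the cells did not exceed that median. The members' median percentile, averaged over cells, was 53.6, and leaving out 1 cell gave 32.3 to 69.8, the lowest without cell 1. Without cell 1 the mean percentile was 2.22 in place of 34.4 for Gabra2, 28.7 in place of 51.0 for Gabra4 and 24.5 in place of 44.1 for Gabra6. No paired analysis was possible because the arrays form a single group. Deposited values without scaling moved no difference by more than 0.36 log2, and range scaling by no more than 0.13. Values near or below background, as for Gabra6 and Gabrb2, are open to probe affinity.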
